A study of Mus musculus with 24 samples.

Results

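Rbfox3, Elavl3, Elavl4, Celf2, Neurod6 and Bcl11a encode neuronal RNA-binding proteins and transcription factors, and their RNAs were followed in STAU2 immunoprecipitates of embryonic mouse cortex. All rows of the deposited peak table that carry one of the 6 gene symbols were taken, which gave 23 peaks of 14297 rows with a gene, in 6 of 7970 genes. Rbfox3 had 9 peaks, Bcl11a 5, Elavl4 4, Celf2 3, and Elavl3 and Neurod6 had 1 each. The 4 groups are brain cortex of C57BL/6 embryos at E11.5 (E for embryonic day) and then at E13.5, at E15.5, and last E17.5, with 3 libraries per stage made from RNA that an antibody against STAU2 (Abcam ab60724) pulled down. The labels name no mutant allele, transgene or treatment in any group, and do not say whether the 3 replicates are separate animals or pools, so the p-values speak for the spread among these libraries, which may be technical.

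A count column is named by stage and replicate number, and the labels use each such name for an immunoprecipitation and for its input. Since the table is one of peaks, the columns were taken to be the immunoprecipitations, and all results depend on this. Input libraries were not analysed here, so RNA abundance and RNA binding cannot be told apart. In bulk tissue, fewer cells of a type and less RNA per cell cannot be told apart either.

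STAU2 is a double-stranded RNA-binding protein that travels in ribonucleoprotein particles and takes part in RNA transport in neurons and in the unequal partition of RNAs between daughter cells of dividing neural progenitors. The proteins encoded by the RNAs described here act later in the same lineage. Rbfox3, known as NeuN, is a splicing factor of postmitotic neurons that binds GCATG. Elavl3 (HuC) and Elavl4 (HuD) are neuronal Hu proteins that bind AU-rich and U-rich sequence in 3′ UTRs, and Celf2 regulates splicing and mRNA stability through GU-rich sequence. Neurod6 is a basic helix-loop-helix factor of glutamatergic cortical neurons, and Bcl11a (CTIP1) is a zinc-finger repressor of cortical projection neurons.

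Gene-row totals were 4688215 to 6374892 counts per library. The 3 E11.5 libraries stood apart: rows called Intron held 56.3% to 64.0% of their gene-row counts, against 22.6% to 34.0% in the other 9 libraries. Scaling by trimmed means of M-values (TMM) gave the E11.5 libraries factors of 0.477 to 0.596, against 1.16 to 1.39 later, and CPM below means counts per 1000000 after that scaling. Dividing by the gene-row total instead would raise the median change of all genes by 1.18 on the log2 scale for E13.5 against E11.5, and for E17.5 against E11.5 by 1.21. With it, 97.4% of the genes called at E13.5 against E11.5 were higher, against 51.5% with TMM. All changes are relative to the median gene.

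The sequences below are shown because they are the parts of the members' peaks that hold recognition letters of known RNA-binding protein families, among them those of the encoded proteins, or the longest runs of 1 base. They were read from GENCODE M21 transcripts (GRCm38), run 5′ to 3′ on the transcript strand, and have the motif in capitals. The Elavl3 peak in the 3′ UTR held 5 ATTTA sites, the AU-rich element core that Hu proteins are known to bind. The first and second lines, on the minus strand of chromosome 9, show sites that share a base.
Elavl3 chr9:22015905-22015934: tggttatgcctaATTTAtttatacaaaggg
Elavl3 chr9:22015901-22015930: tatgcctaatttATTTAtacaaaggggaag
Elavl3 chr9:22016024-22016053: ctgtgtttaactATTTAttctccttgttgg
Elavl3 chr9:22016065-22016094: cttttttgctgaATTTAgcttcatgtagtt
Celf2 chr2:6543472-6543501: tccctccatttgATTTAatgtgtgtgtgaa
Bcl11a chr11:24172937-24172966: cagtgccattttATTTAtattttttaataa
Rbfox3 chr11:118489951-118489980: tctattcctgaTGTACATAgccccgcgcct
Bcl11a chr11:24085669-24085698: agagaaactgttTGCATGttttctgtttgt
The Rbfox3 line shows the only match to TGTANATA, the Pumilio recognition letters, in the members' exonic peak sequence, and the last line the only match to TGCATG, the extended Rbfox letters. The Celf2 and Rbfox3 lines lie on the minus strand and the Bcl11a lines on the plus strand.

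Motif frequencies were taken over central 200-base exonic windows of 7005 gene rows. Of these rows, 4054 overlap at least 200 bases of 3′ UTR in GENCODE M21, and their windows are called 3′ UTR windows here. On the transcript strand, ATTTA was in 20.6% of all windows and in 26.4% of the 3′ UTR windows, and on the opposite strand in 19.97%. Of the 10 member windows, those of Elavl3 (4 sites) and Bcl11a (1 site in the 3′ UTR peak and 1 in the 5′ UTR peak) held it. GCATG was in 15.2% of windows (opposite strand 15.9%), TGCATG, which contains GCATG, in 5.17% (4.78%), TGTTTG in 9.62% (5.41%), TTTTTTT in 7.50% (6.04%) and TGTANATA in 3.38% (1.87%). Of the 10 member windows, 2 held GCATG, 1 TGCATG, 1 TGTTTG, 0 TTTTTTT and 1 TGTANATA. The other 13 member peaks overlap fewer exonic bases than a window and have no window value.

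Runs of A were looked at after the sequences had been seen. The Celf2 peak in the 3′ UTR holds 23 A in a row, the Rbfox3 peak in the 3′ UTR 15, the Elavl3 peak 14, the Bcl11a 5′ UTR peak 12, and the Neurod6 and Bcl11a 3′ UTR peaks 8 each.
Celf2 chr2:6543403-6543432: tgcAAAAAAAAAAAAAAAAAAAAAAAgttc
Rbfox3 chr11:118490089-118490118: aaaaaagAAAAAAAAAAAAAAAttaacaga
Elavl3 chr9:22016128-22016157: gacgatttAAAAAAAAAAAAAAggaaaaaa
Neurod6 chr6:55679392-55679421: gggggctcaggAAAAAAAAgaccaccaaac
AAAAAAA was in 6.04% of all windows and in 8.46% of 3′ UTR windows on the transcript strand, and in 7.50% on the opposite strand. Of the 10 member windows, 4 held it: those of Celf2, Rbfox3 and Bcl11a in the 3′ UTR and that of Neurod6. A match describes the letters only, and binding at these positions was not measured.

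Exact runs shared with paralogs were looked for in the exonic bases of each peak, and overall identity was not computed. The longest run that a member peak had in common with transcripts of its closest paralogs was 8 to 20 bases. The longest of these lies in coding exon 2 of Elavl4 and matches Elavl3.
Elavl4 chr4:110251376-110251395: accaacctcatcgtcaacta
The window folding energies of the members, computed with RNAfold, ran from -54.5 to -29.4 kcal/mol, against a median of -49.4 over all windows. Only the Bcl11a windows at 24085489 (-54.5) and 24163212 (-50.7) lay below that median, and the other member windows had weaker predicted folding. The longest predicted stems had 6 to 10 base pairs, with a median of 8 over all windows. Elavl3, with 35.0% GC in its window, had one of the 2 stems of 10 base pairs, between cctttgtgta (chr9:22016004-22016013) and tatacaaagg (chr9:22015906-22015915). Stems of at least 10 base pairs were predicted in 19.0% of all windows.

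Changes over the stages differed among the 6 genes. Rbfox3 and Neurod6 rose by more than 10-fold between E11.5 and E13.5, Bcl11a and Elavl3 rose by smaller amounts, and Elavl4 fell between E15.5 and E17.5. Counts were summed over the peaks of each gene and tested with edgeR's quasi-likelihood F test with Benjamini-Hochberg adjustment over 7876 genes, and called at an adjusted p under 0.05. Over the 4 stages 5 of the 6 genes changed, and Celf2 did not pass (adjusted p = 0.0774, edgeR). Celf2 did pass in DESeq2 (adjusted p = 0.0427) and in edgeR when scaled by the gene-row total (0.000159), the total over all peaks (0.000141) or the total of non-intron gene rows (0.0104). The background is high here: 53.7% of all tested genes changed. All 6 genes and all 23 peaks passed the filter on low counts.

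**Figure D1:**
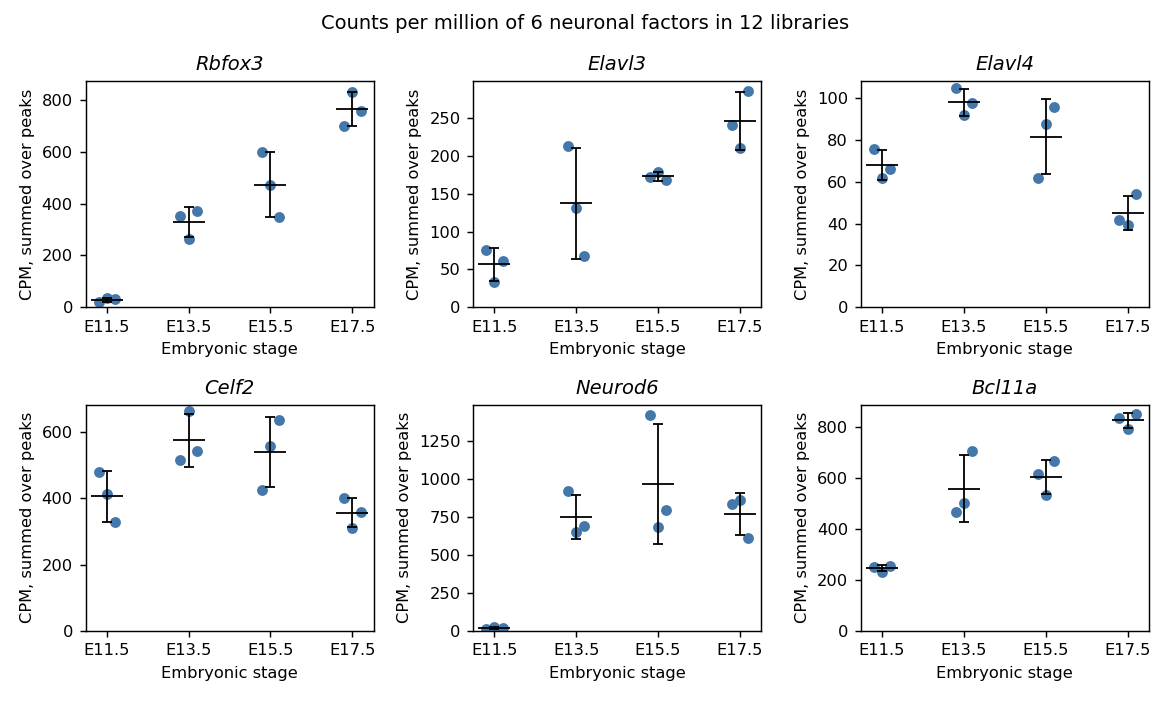
CPM (vertical axis, linear from 0, with its own range in each panel) by embryonic stage (horizontal axis) for each gene, summed over its peaks. Points are the 3 libraries of a stage, the wide bar is their mean and the whisker the SD. The E11.5 points of Rbfox3 and Neurod6 lie near 0. With the TMM scaling drawn here, Elavl4 and Celf2 have their lowest means at E17.5, which other scalings change.

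Rbfox3, the neuronal nuclear antigen gene (ENSMUSG00000025576, chromosome 11, 118489762 to 118911597, minus strand), had 20.6, 34.1 and 31.3 CPM in the E11.5 libraries. At E13.5 it had 351, 262 and 372 CPM, at E15.5 599, 470 and 349, and at E17.5 702, 833 and 758. Every library of E13.5 lay above every library of E11.5, the E13.5 and E15.5 libraries overlapped, and the E17.5 libraries were all above those of E15.5. The mean rose from 28.7 ± 7.13 CPM (SD, n = 3) at E11.5 to 764 ± 66.0 at E17.5, a fitted fold of 26.7. The log2 change was 3.52 ± 0.31 (SE) at E13.5 against E11.5 (adjusted p = 2.03e-06, edgeR) and 4.74 ± 0.32 at E17.5 against E11.5 (adjusted p = 2.11e-08, edgeR). The last step, E17.5 against E15.5, was 0.69 ± 0.27 and did not pass in edgeR (adjusted p = 0.0836), while DESeq2 called it (0.74, adjusted p = 0.0299).

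Neurod6, the glutamatergic neuron factor (ENSMUSG00000037984, chromosome 6, 55677822 to 55681263, minus strand), had 12.8, 25.4 and 18.9 CPM at E11.5. The E13.5 libraries had 920, 649 and 689 CPM, those of E15.5 1421, 688 and 795, and those of E17.5 837, 862 and 610. All 9 later libraries lay far above the E11.5 libraries and overlapped with each other. Of the 6 genes it had the largest change at E13.5 against E11.5, with a log2 change of 5.31 ± 0.39 (SE; adjusted p = 2.78e-07, edgeR), and at E17.5 against E11.5 it was 5.34 ± 0.39 (adjusted p = 4.15e-08, edgeR). One library, replicate 1 of E15.5, stood above the others, and without it the change at E17.5 against E15.5 went from -0.33 to 0.05, neither of which passed (adjusted p = 0.497 and 0.932, edgeR). Its single peak, chromosome 6, 55679199 to 55679515, lies wholly in the coding part of exon 2 of the transcript's 2 exons.

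Bcl11a, the projection neuron repressor (ENSMUSG00000000861, chromosome 11, 24078056 to 24174123, plus strand), had 252, 232 and 256 CPM at E11.5. It had 466, 502 and 708 CPM at E13.5, 615, 532 and 667 at E15.5, and 837, 795 and 852 at E17.5. Values were below all others in the E11.5 libraries and above all others in the E17.5 libraries. The log2 change was 1.18 ± 0.24 (SE) at E13.5 against E11.5 (adjusted p = 0.00232, edgeR) and 1.75 ± 0.25 at E17.5 against E11.5 (adjusted p = 2.02e-05, edgeR), and it was 0.45 ± 0.24 at E17.5 against E15.5 (adjusted p = 0.195, edgeR). An antisense gene, 4930538E20Rik, has rows at 2 of the 5 Bcl11a peaks, with 2584 counts against 16777 of Bcl11a there. The library kit marks the strand per the labels' protocols, but how strand was used in counting is not given in the sources used here, so the 2 genes are uncertain where they overlap. The 3 Bcl11a peaks without such a row rose at E17.5 against E11.5 as well.

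Elavl3, which encodes HuC (ENSMUSG00000003410, chromosome 9, 22015005 to 22052023, minus strand), had 75.8, 33.0 and 61.0 CPM at E11.5. It had 214, 131 and 67.6 CPM at E13.5, 172, 179 and 168 at E15.5, and 241, 211 and 286 at E17.5. Replicate 3 of E13.5 lay within the range of E11.5, so these stages overlapped, while all E17.5 libraries were above all E11.5 libraries. The log2 change was 1.27 ± 0.37 (SE) at E13.5 against E11.5 (adjusted p = 0.0185, edgeR). That call was lost without replicate 1 of E13.5 (0.81, adjusted p = 0.128, edgeR) or without replicate 2 of E11.5 (1.00, adjusted p = 0.0778, edgeR). At E17.5 against E11.5 it was 2.12 ± 0.37 (adjusted p = 0.000176, edgeR), with 1.84 to 2.39 when any 1 library was left out, each past the threshold.

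Elavl4, which encodes HuD (ENSMUSG00000028546, chromosome 4, 110203722 to 110351909, minus strand), went the other way late in the series. The E11.5 libraries had 75.8, 61.8 and 66.4 CPM, those of E13.5 105, 91.8 and 97.6, those of E15.5 61.6, 87.7 and 95.9, and those of E17.5 41.7, 39.2 and 54.3. The E17.5 libraries were below all 9 others, and the E13.5 libraries were all above E11.5. The log2 change at E17.5 against E15.5 was -0.86 ± 0.24 (SE; adjusted p = 0.0200, edgeR). The direction and the call were the same under the 4 other scalings, and the call was lost without replicate 2 or 3 of E15.5 or replicate 1 or 2 of E17.5 (-0.73 to -0.81, adjusted p = 0.0515 to 0.0843, edgeR).

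The Elavl4 difference between the ends of the series depends on the scaling. At E17.5 against E11.5 it was -0.59 ± 0.24 (SE; adjusted p = 0.0471, edgeR), and the call was lost without 9 of the 12 libraries, taken out 1 at a time, with adjusted p up to 0.143 (edgeR). It was also lost with relative log expression scaling (-0.58, adjusted p = 0.0524, edgeR) and with peaks of at least the median score (-0.54, adjusted p = 0.135, edgeR). It turned to 0.61 when scaled by the gene-row total and to 0.38 by the total over all peaks, and neither passed (adjusted p = 0.0535 and 0.2497, edgeR). When scaled by the total of non-intron gene rows, an alternative added after seeing the data, it was -0.28 (adjusted p = 0.350, edgeR). The step from E11.5 to E13.5, 0.53 ± 0.24 (adjusted p = 0.126, edgeR), passed under these 3 scalings, with 0.91 to 1.75.

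Celf2 (ENSMUSG00000002107, chromosome 2, 6539694 to 7509563, minus strand), the GU-rich element binder, had 479, 412 and 327 CPM at E11.5 and 516, 665 and 544 at E13.5. It had 425, 557 and 637 CPM at E15.5 and 400, 311 and 358 at E17.5. Its E13.5 libraries were above those of E11.5 and its E17.5 libraries below those of E15.5, but neither step passed: 0.50 ± 0.25 (SE; adjusted p = 0.163, edgeR) and -0.60 ± 0.25 (adjusted p = 0.106, edgeR). The first step passed when scaled by the total of non-intron gene rows (0.89, adjusted p = 0.0180, edgeR), by the gene-row total or by the total over all peaks. The second, again lower, passed with the total over all peaks (adjusted p = 0.0211, edgeR). At E17.5 against E11.5 it was -0.19 ± 0.25 (adjusted p = 0.539, edgeR), and the sign turned with those 3 scalings (0.13, 1.00 and 0.78, with adjusted p = 0.692, 0.00461 and 0.0303, edgeR).

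Read against all genes, 4 of the 6 were higher at E13.5 against E11.5 and 0 lower, where edgeR called 24.6% of all genes tested, 12.7% higher and 11.9% lower. Over the whole span, E17.5 against E11.5, 4 were higher and 1 lower, against 57.8% of all genes called, 28.8% higher and 29.0% lower. In the last step, E17.5 against E15.5, 0 were higher and 1 lower, against 20.4% called, 9.37% higher and 11.1% lower. In the middle step, E15.5 against E13.5, edgeR called 0 of the 6, and 0 had an unadjusted p under 0.05 with edgeR or DESeq2, while 0.673% of all genes were called (0.178% higher, 0.495% lower). The log2 changes in that step lay between -0.26 (Elavl4) and 0.53 (Rbfox3). The median over the 6 genes was 1.23 at E13.5 against E11.5 and 1.93 at E17.5 against E11.5, against 0.04 and 0.03 over all genes. Libraries that did not overlap were counted as well. At E13.5 they lay above all E11.5 libraries for 5 of the 6 genes, all but Elavl3, and below for 0 (20.3% and 18.8% of all genes). At E15.5 they lay above or below those of E13.5 for 0 of the 6 (6.74% and 7.55%). The E17.5 libraries lay above those of E15.5 for 3 and below for 2 (17.8% and 18.9%), and above those of E11.5 for 4 and below for 1 (31.3% and 31.2%).

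Levels can be compared between genes only per length, here as mean CPM per kilobase of peak, which includes intronic bases that some peaks cover. At E11.5 the order was Celf2 (395 ± 74.1, SD, n = 3), Elavl3 (140 ± 53.7), Bcl11a (139 ± 7.13), Elavl4 (61.8 ± 6.49), Neurod6 (60.1 ± 19.8) and Rbfox3 (7.88 ± 1.96). Elavl3 and Bcl11a were within their spread of each other, as were Elavl4 and Neurod6. At E17.5 the order was Neurod6 (2428 ± 437), Elavl3 (607 ± 93.8), Bcl11a (467 ± 16.6), Celf2 (347 ± 43.2), Rbfox3 (210 ± 18.1) and Elavl4 (40.9 ± 7.37). By this measure Celf2 went from the highest to the fourth place, and Neurod6 from the fifth, within the spread of Elavl4, to the first. Some peaks of Rbfox3, Elavl4, Celf2 and Bcl11a cover bases outside exons, and places per exonic base were not computed.

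The 2 Hu genes diverged within each library, a comparison that no library scaling can move. The log2 ratio of Elavl4 to Elavl3 counts (0.5 added to each) was 0.00, 0.90 and 0.12 at E11.5 and -1.03, -0.51 and 0.53 at E13.5. It was -1.48, -1.03 and -0.81 at E15.5, and -2.53, -2.42 and -2.40 at E17.5. The E17.5 libraries were below all others, the E15.5 libraries were below all E11.5 libraries, and those of E13.5 overlapped with both neighbours. The mean went from 0.34 ± 0.49 (SD, n = 3) to -2.45 ± 0.070, a change of -2.79, so Elavl4 counts were 1.27 times those of Elavl3 at E11.5 and 0.183 times at E17.5. An exact permutation test over the stages, with all 369600 assignments of the 12 libraries to 4 stages of 3, gave p = 0.001558 (two-sided, smallest possible p = 6.494e-05). It stayed between 0.000325 and 0.00429 when any 1 library was left out. The 2 sums come from different kinds of peak, 1 wholly in the 3′ UTR for Elavl3 and 4 on coding and 5′ UTR exons with flanking intron for Elavl4. The ratio thus compares stages and not the 2 RNAs' binding. In coordinate order, the Elavl4 peaks have 105 of 322, 78 of 145, 125 of 317 and 146 of 317 bases in an exon. The E11.5 libraries held more of their counts in rows called Intron, and the part of intronic reads in the ratio was not tested.

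**Figure D2:**
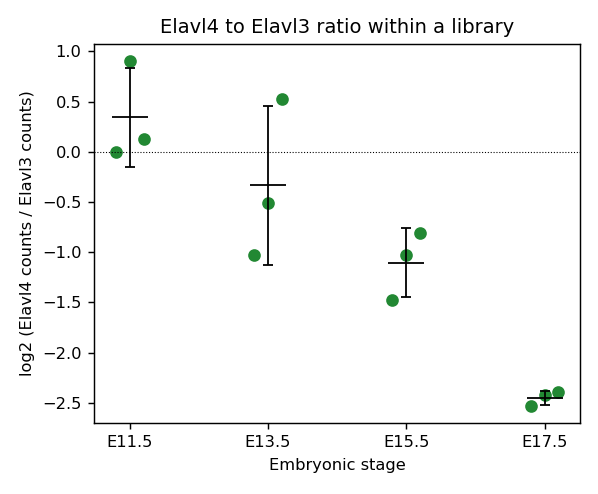
Log2 ratio of Elavl4 to Elavl3 counts in each library (vertical axis) by embryonic stage (horizontal axis). Points are libraries, wide bars means of 3 and whiskers the SD, with equal counts at the dotted line. The 3 E17.5 libraries lie between -2.53 and -2.40, below the other 9.

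Tested singly, 17 of the 23 peaks changed over the 4 stages, where 46.6% of all peaks changed. At E13.5 against E11.5, 15 of the 23 peaks were higher and 0 lower in edgeR, adjusted over 14106 peaks, of which 17.2% were called, 9.36% higher and 7.88% lower. All 9 Rbfox3 peaks are among the 15, and peaks of the same gene are not independent, so these counts do not add to the gene results. Over the whole span 16 were higher and 1 lower, against 51.9% of all peaks called, 25.8% higher and 26.1% lower. For E15.5 against E13.5 edgeR called 0 (1 with an unadjusted p under 0.05, and 0 called by DESeq2), against 0.319% of all peaks, 0.0425% higher and 0.276% lower. For E17.5 against E15.5 it also called 0 (6 with an unadjusted p under 0.05, and 2 called by DESeq2), against 13.1% of all peaks, 5.89% higher and 7.17% lower.

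**Figure D3:**
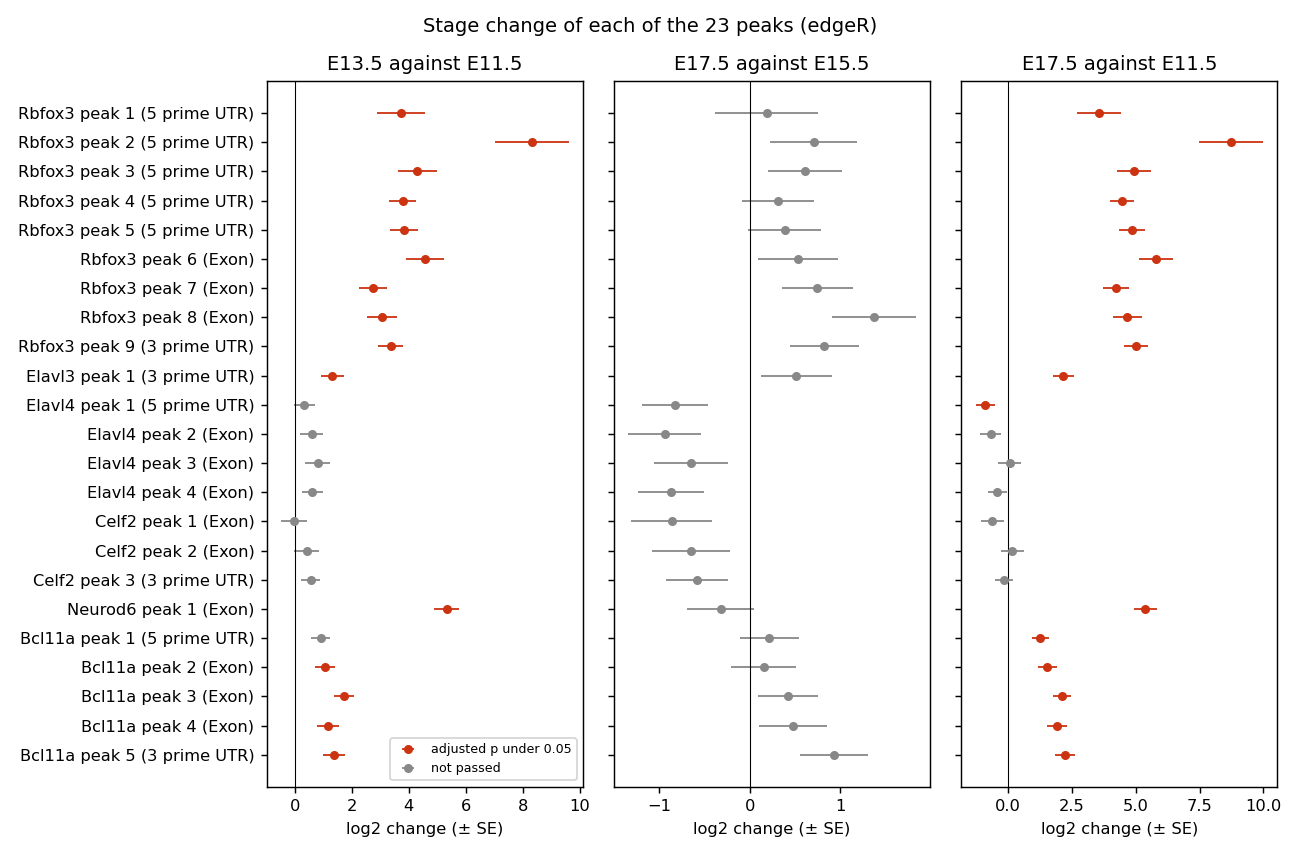
Log2 change (horizontal axis, edgeR, with its SE as the whisker) of each of the 23 peaks in 3 comparisons, each panel with its own range. Peaks are numbered 5′ to 3′ within a gene and named with the location that the deposited table gives. Red points passed at an adjusted p under 0.05: all 9 Rbfox3 peaks are red and to the right of 0 in the left and right panels, and no peak is red in the middle panel.

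All 9 Rbfox3 peaks rose at E13.5 against E11.5 and at E17.5 against E11.5. They span the transcript. The peaks at 118909148, 118810916 and 118670270 lie on 5′ UTR exons 1, 2 and 3 of the 15-exon transcript Rbfox3-201 and on flanking intron. They have 181 of 337, 73 of 435 and 105 of 583 bases in those exons. Another 2 peaks that the table calls 5′ UTR, at 118512936 and 118505466, cover 222 coding bases of exon 5 (of 456 bases of peak) and 138 of exon 6 (of 337). The next 3, at 118496740, 118495073 and 118493859, cover coding exons 11, 13 and 14 with flanking intron, and the peak at 118489842 to 118490280 lies in the 3′ UTR.

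The 5′ UTR peaks of Rbfox3 had few counts. The exon 2 peak, chromosome 11, 118810916 to 118811350, had 0 counts in each E11.5 library and 60, 14 and 72 at E13.5, at least 19.3-fold higher taking 3 counts over the 3 libraries as the floor. At E17.5 it had 49, 34 and 74 counts, at least 25.5-fold higher. The exon 3 peak had 1 count in each E11.5 library and 46, 30 and 84 at E13.5, a ratio of 21.1 (95% exact interval 7.10 to 104, counting error only). The exon 1 peak had 1, 4 and 0 counts at E11.5 and 18, 113 and 39 at E13.5. These low counts leave the sizes of their rises poorly fixed.

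The Rbfox3 peaks with the most counts at E11.5 were those in the 3′ UTR and on exon 5. The 3′ UTR peak had 22, 21 and 25 counts at E11.5 and 1131, 1919 and 1491 at E17.5, a log2 change of 5.02 ± 0.47 (SE; adjusted p = 2.38e-08, edgeR). The exon 5 peak had 15, 28 and 10 counts at E11.5 and 907, 650 and 905 at E17.5, a log2 change of 4.46 ± 0.48 (adjusted p = 1.48e-07, edgeR). The other 4 coding peaks had log2 changes between 4.22 and 5.78 in that comparison, and the highest, at 118496740, rests on 3, 0 and 3 counts at E11.5.

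The 5 Bcl11a peaks run from the 5′ UTR to the 3′ UTR. All 5 rose at E17.5 against E11.5, from 1.26 ± 0.33 (SE; adjusted p = 0.00304, edgeR) for the 5′ UTR peak at 24078141 to 2.24 ± 0.39 (adjusted p = 5.67e-05, edgeR) for the 3′ UTR peak at 24172778. At E13.5 against E11.5, 4 passed and the 5′ UTR peak did not (0.90 ± 0.33, adjusted p = 0.0636, edgeR). The 5′ UTR peak passed in DESeq2 (0.87, adjusted p = 0.0156), with peaks of at least the median score (0.92, adjusted p = 0.0464, edgeR) and with the gene-row, all-peak and non-intron totals (1.27 to 2.12). Of those 4, the call at 24172778 was lost without replicate 1 of E11.5 or replicate 3 of E13.5 (adjusted p up to 0.132, edgeR). The call at 24163212 was lost without replicate 1 or 3 of E11.5 or replicate 2 or 3 of E13.5 (up to 0.159), and the call at 24085489 without any library other than replicate 1 of E11.5 and replicates 2 and 3 of E15.5 (up to 0.177), or with relative log expression scaling (adjusted p = 0.0533, edgeR). The call at 24158298, coding exon 3, held without each library. The peak at 24085489 to 24085799 lies wholly in a retained-intron transcript (Bcl11a-205), and it holds the TGCATG site printed above.

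Elavl4 had 4 peaks, each with flanking intron. They lie on coding exons 2, 4 and 5 of transcript Elavl4-201 and on the first exon of another transcript, Elavl4-202. None of the 4 passed at E17.5 against E15.5 by itself, with log2 changes of -0.65 to -0.94 and adjusted p of 0.117 to 0.313 (edgeR). With the total over all peaks, those at 110287062, 110251089 and 110211209 passed (-1.21 to -1.38, adjusted p = 0.0262 to 0.0276, edgeR). From E11.5 to E17.5 the first-exon peak, 110287062 to 110287378, was lower (-0.91 ± 0.37, SE; adjusted p = 0.0440, edgeR). It had 61, 45 and 53 counts at E11.5 and 35, 59 and 81 at E17.5. The raw counts overlap while the CPM do not, and with gene-row total scaling the change was 0.28 (adjusted p = 0.537, edgeR). That call was also lost without any 1 of 6 libraries, the 3 of E11.5, replicate 1 of E15.5 and replicates 1 and 2 of E17.5 (adjusted p up to 0.188, edgeR).

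Celf2 had 89.5% to 92.3% of its counts, as stage means, in the 3′ UTR peak at chromosome 2, 6543140 to 6543532. The other 2 peaks lie in a retained-intron transcript and mostly in intron, with 14 exonic bases for the peak at 6872053 to 6872369. With TMM scaling none of the 3 peaks passed in edgeR in any of the 4 comparisons. With gene-row total scaling all 3 were higher at E13.5 against E11.5 (adjusted p = 0.000603, 0.00423 and 0.0409, edgeR), and the peaks at 6543140 and 6607598 were higher at E17.5 against E11.5 (adjusted p = 0.0196 and 0.00991, edgeR). In the latter comparison the 3′ UTR peak turned from -0.16 with TMM to 0.99. With the total over all peaks the peak at 6872053 was lower at E17.5 against E15.5 (adjusted p = 0.0496, edgeR).

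**Figure D4:**
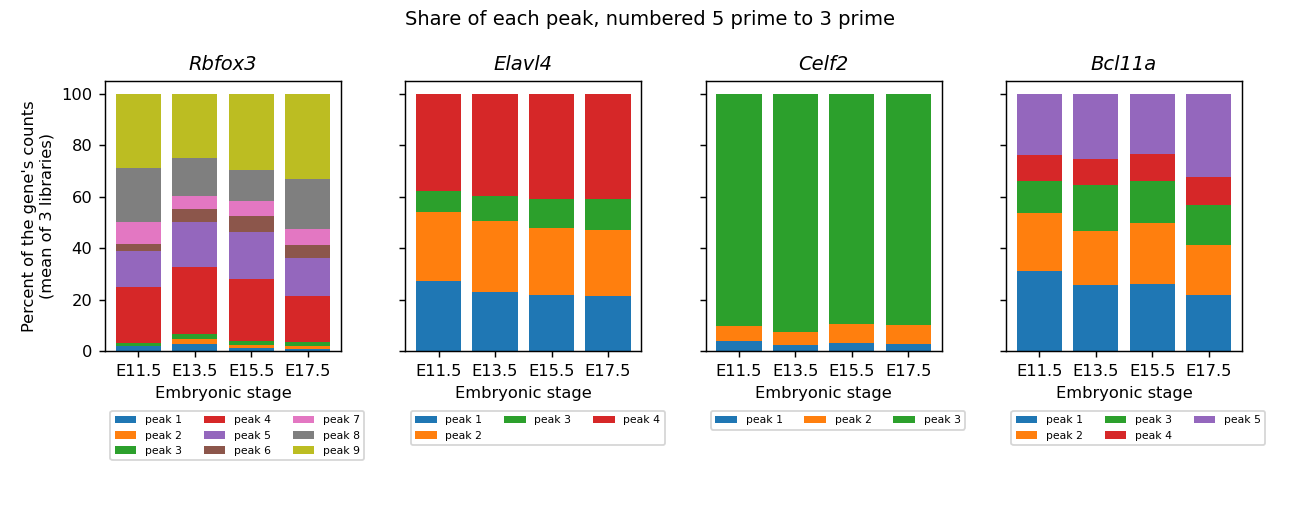
Percent of a gene's counts that fell in each of its peaks (vertical axis, mean of 3 libraries) by embryonic stage (horizontal axis), for the 4 genes with more than 1 peak. Colours number the peaks 5′ to 3′. The Celf2 3′ UTR peak stays near 90%, and the Bcl11a 3′ UTR peak has 23.6% at E11.5 and 32.3% at E17.5.

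The split of counts among a gene's peaks was tested with edgeR's diffSpliceDGE, which asks whether 1 peak moved differently from the others of its gene. It called 0 of the 21 member peaks in each of the 4 comparisons, where 0.321% of all 9648 peaks tested were called at E13.5 against E11.5, 1.47% at E17.5 against E11.5, 0.0622% at E17.5 against E15.5 and 0 at E15.5 against E13.5. A single member peak, on exon 2 of Rbfox3, had an unadjusted p under 0.05 in edgeR, at E13.5 against E11.5. The 3′ UTR share of Bcl11a went from 23.6% ± 2.21 (SD, n = 3) to 32.3% ± 6.85 and its 5′ UTR share from 31.4% ± 1.45 to 22.1% ± 5.43 between E11.5 and E17.5, neither past the threshold. The 3′ UTR share of Rbfox3 was 28.7% ± 4.67 at E11.5 and 32.9% ± 7.30 at E17.5, within the spread of the libraries.

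Genes with the most similar profile over the 12 libraries were sought for each member by Pearson's r of log2(CPM + 1). The libraries share stage and depth, so r describes the profile only. These CPM are TMM-scaled, and r under the other scalings was not computed. Nearest to Rbfox3 were Nfix (r = 0.997), Lrrn2 (0.988) and Aplp1 (0.988). Nfix, a nuclear factor I transcription factor, had mean CPM of 23.01, 642, 1132 and 1831 in stage order. Nearest to Neurod6 were Sez6l (0.983), Bcan (0.981) and Nrcam (0.976), and nearest to Bcl11a were Nedd4l (0.979), Adgrl1 (0.978) and Grik5 (0.978). Among the nearest to Elavl3 were Dctn3 (0.975) and Gak (0.959).

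Elavl4 and Celf2 had different neighbours with TMM scaling. At E17.5 against E11.5 their log2 changes turned from -0.59 and -0.19 to 0.61 and 1.00 with gene-row total scaling, so these profiles depend on the scaling. Nearest to Elavl4 were Hsd17b12 (r = 0.969), Serinc2 (0.965) and Ptpn21 (0.953), and nearest to Celf2 were Gdpd1 (0.958), Tor1a (0.942) and Plcxd2 (0.938). Serinc2 had mean CPM of 76.8, 149, 121 and 38.1 in stage order, highest at E13.5 like Elavl4. Among the members themselves, r over the 12 libraries was 0.96 for Rbfox3 with Neurod6 and with Bcl11a, 0.83 for Elavl4 with Celf2, and -0.22 for Elavl4 with Elavl3.

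Other RNA-binding proteins of neurons and cortex were split in direction. Of 39 listed genes, 24 were tested. At E13.5 against E11.5, 7 rose and 7 fell, with a median of -0.07 (0.04 over all genes). At E17.5 against E11.5, 8 rose and 11 fell, with a median of -0.41 (0.03). Of all genes tested, 12.7% rose and 11.9% fell in the first comparison, and 28.8% and 29.0% in the second. Gene-row total scaling turned the splits of the list to 15 against 2 and 12 against 4. Igf2bp2, an mRNA-binding protein of fetal tissue, fell from 1299 ± 323 CPM (SD, n = 3) at E11.5 to 45.4 ± 7.60 at E17.5, a log2 change of -4.84 ± 0.31 (adjusted p = 1.33e-08, edgeR), and it had already fallen at E13.5 (-2.24). Mbnl3, a muscleblind splicing factor, had a log2 change of -6.42 ± 0.58 at E17.5 against E11.5. Its level went from 54.3 ± 20.7 CPM (SD, n = 3) to 0.627 ± 0.545. The latter lies near 0, so the size of the change is poorly fixed. Nova1, a neuronal splicing factor, had a log2 change of -1.76 ± 0.28 at E13.5 against E11.5 (adjusted p = 0.000320, edgeR). That call was lost when scaled by the gene-row total (-0.58, adjusted p = 0.0819, edgeR) or by the total over all peaks (-0.54, adjusted p = 0.108, edgeR).

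Within the Celf family, Celf4 and Celf3, both enriched in neurons, rose over the whole span. Celf4 went from 48.7 ± 10.7 CPM (SD, n = 3) at E11.5 to 392 ± 32.4 at E17.5 (3.01 ± 0.26, adjusted p = 2.17e-07, edgeR) and Celf3 from 28.3 ± 5.96 to 220 ± 26.9 (2.96 ± 0.26, adjusted p = 2.64e-07, edgeR). The differences between Celf2 and these genes were not tested. Of the neuronal microexon regulators, Srrm4 rose at E13.5 against E11.5 (1.48) and Srrm3 at E17.5 against E15.5 (1.68). Msi1, an RNA-binding protein of neural progenitors, fell at E17.5 against E15.5 (-1.12), and so did Igf2bp2 (-1.92), while Celf4 rose (1.26).

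Of 44 other transcription factors of cortical neurons, 28 were tested. At E13.5 against E11.5, 17 rose and 5 fell, against 12.7% and 11.9% of all genes. The median was 1.05 (0.04 over all genes), and gene-row total scaling gave 23 against 0. The named ones with the smallest p included 3 nuclear factor I genes, Nfix (4.81), Nfib (3.49) and Nfia (2.76), with Neurod1, a relative of Neurod6, at 2.17. At E17.5 against E15.5, 6 rose and 9 fell, against 9.37% and 11.1% of all genes. The median was -0.08 (0.003 over all genes). Gene-row total scaling gave 6 against 9, and the total over all peaks 4 against 9. Neurog1, a proneural factor of progenitors, fell from 75.7 ± 23.4 CPM (SD, n = 3) to 2.74 ± 0.871 (-4.78 ± 0.41, adjusted p = 4.08e-06, edgeR), Nhlh1 by 3.84 and St18 by 2.60 on the log2 scale, and Pou2f2 rose by 2.37. Over the whole span 16 rose and 6 fell, against 28.8% and 29.0% of all genes (gene-row total scaling gave 22 against 3). Ldb2 rose by 3.52, Lmo3 by 3.14 and Nfix by 6.32. Between E13.5 and E15.5 edgeR called 0 in either list, against 0.673% of all genes. In that step 6 RNA-binding proteins and 5 transcription factors had an unadjusted p under 0.05, and DESeq2 called 1 in each list. 

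Stau2 itself, whose protein was pulled down, had, in stage order, 100 ± 28.8, 102 ± 13.8, 99.1 ± 17.2 and 134 ± 7.83 CPM (SD, n = 3). With TMM scaling no comparison of its summed counts passed, with the lowest adjusted p at 0.171 (edgeR). With gene-row total scaling it was 1.62 higher on the log2 scale at E17.5 against E11.5 (adjusted p = 8.35e-05, edgeR). It also passed there with the total over all peaks (1.39, adjusted p = 0.000540, edgeR) and that of non-intron gene rows (0.74, adjusted p = 0.0248, edgeR). At E13.5 against E11.5 it passed with the gene-row and all-peak totals (1.20 and 1.25, adjusted p = 0.00155 and 0.00151, edgeR).

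Markers of other cell types moved with stage beside these genes. Summed CPM of the 5 cortical identity markers with gene rows, out of 5 listed, were 1633 to 2192 at E11.5 and 869 to 896 at E17.5. Interneuron markers (5 of 9 with gene rows) went from 137 to 170 CPM at E11.5 up to 605 to 700 at E17.5, and those of intermediate progenitors (5 of 9) were 87.6 to 124, 315 to 372, 292 to 372 and 130 to 147 in stage order. Markers of meninges and mesenchyme (7 of 9) were, in stage order, 242 to 285, 299 to 321, 31.4 to 39.5 and 3.48 to 4.13 CPM. Radial glia markers (8 of 12) were 645 to 1047 CPM at E11.5 and 775 to 1143 at E17.5, and erythroid markers (2 of 6) 29.3 to 33.4 at E11.5 and 0 to 0.178 at E17.5. Of glia (3 of 9 with gene rows), Cajal-Retzius cells (2 of 6) and the vascular and microglial list (2 of 8), the sums were 5.08 to 9.10, 2.32 to 6.27 and 8.49 to 14.9 CPM at E11.5 and 64.9 to 79.3, 47.1 to 68.9 and 8.70 to 11.1 at E17.5. In the Cajal-Retzius list Trp73, Lhx5, Lhx1 and Nhlh2 had no gene row, which leaves Reln and Calb2. In the glia list Olig1, Pdgfra, Aldh1l1, Gfap, Aqp4 and S100b had none. Bcan of the glia list, near Neurod6 in profile, had a mean of 32.5 CPM at E17.5, where the glia sum had a mean of 74.3. These sums rest on few genes and do not measure cell numbers. No marker with a gene row was at 0 counts in all 3 libraries of a stage, and markers without a gene row, such as Vim, Nes, Neurog2, Dlx1, Gad2 and Gfap, were not analysed here. The part of cell composition in the changes of the 6 genes was not tested.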

How the data were processed

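RNA immunoprecipitates of embryonic mouse cortex were sequenced from ScriptSeq libraries after removal of ribosomal RNA, per the labels' protocols. The authors deposited whole-number counts per merged peak and strand in 12 columns, and a score for each merged peak, per the file headers. HOMER 4.10, mm10 and GRCm38 are listed in the submitters' processing notes. The aligner, the read counter and the peak settings were not given in the sources used here.

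Of 18975 rows, 14297 with a gene were used. The 4513 rows called Intergenic were left out: all their values are even, and the 605 that share peak and strand with a gene row hold exactly double its counts. Another 165 rows name no gene and were not used. Counts were analysed per peak and summed per gene. They were fitted with edgeR 4.0.16 (R 4.3.3; filterByExpr, TMM, quasi-likelihood F test) in 1 fit of 4 stages without a replicate block. Benjamini-Hochberg adjustment ran over all 7876 genes or 14106 peaks, with a threshold of 0.05. Peak shares were tested with diffSpliceDGE, and the Elavl4 to Elavl3 ratio with an exact permutation test. The tests were checked on simulated data. CPM are TMM-scaled, and intervals and floors cover counting error only. Coordinates are 1-based on mm10, exons and sequences are from GENCODE M21 (GRCm38), and folding used RNAfold (ViennaRNA 2.7.2).

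Alternatives were DESeq2 1.42.0, other scalings (that by non-intron gene rows was added after seeing the data), no filter, the replicate block, a fit without E11.5, peaks with at least the median score of 29.2, and leaving out each library. The members, gene lists and tests were chosen with earlier results of these data known. Named genes are the 6 members with all peaks, the 4 with the smallest p past the threshold per comparison in each of the 2 lists of related genes, the 3 with the most similar profile per member, Stau2, and markers by list. Some genes that this rule picks are not reported here.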

Additional observations from a re-analysis of the deposited data

Results flagged for a closer look

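Except at 2 Bcl11a peaks, where they belong to 4930538E20Rik, reads on the strand opposite the members' peaks lie in rows without a gene, which no comparison uses. After halving of the doubled values, these rows held 970 counts over 6 Rbfox3 peaks, 1007 at the Neurod6 peak, 469 at the Celf2 3′ UTR peak, 223 at the Elavl3 peak and 77 over 2 Elavl4 peaks, summed over the 12 libraries. Each sum is above the 3 counts that a count of 0 allows. They come to 3.10%, 1.86%, 1.44%, 1.83% and 2.06% of the counts on the gene's own strand at the same peaks.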

How the results depend on the processing

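All genes called over the 4 stages numbered 4228, 6374 with scaling by the total over all peaks, and 2523 with peaks of at least the median score. At E13.5 against E11.5 they numbered 1937, with 5310 when scaled by the total of the gene rows, 5401 by the total over all peaks and 1180 with the higher scores. At E15.5 against E13.5 they numbered 53, with 134 in DESeq2, 30 with the higher scores and 11 to 54 when 1 library was left out. With the higher scores they numbered 870 at E17.5 against E15.5 (1610 in the main analysis) and 2774 at E17.5 against E11.5 (4549). Of all peaks, 6578 changed over the stages, 10297 and 10659 with the 2 total scalings and 3553 with the higher scores. At E13.5 against E11.5 the peaks numbered 2433, 8511 and 8745 with the total scalings, 1476 with the higher scores and 1530 to 2578 when 1 library was left out. At E15.5 against E13.5 they numbered 45, 100 in DESeq2, 28 with the higher scores and 19 to 58 with 1 library out. At E17.5 against E15.5 they numbered 1843, 992 with the higher scores and 1054 to 1926 with 1 library out, and with the higher scores 3973 at E17.5 against E11.5 (7322). Fewer peaks enter the test with the higher scores; for the others the cause was not tested.

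Of the 6 genes, 1 was called at E17.5 against E15.5, 2 with scaling by the total over all peaks (Celf2 added) or in DESeq2 (Rbfox3 added), and 0 to 1 with 1 library out. Of the 23 peaks, 15 were called at E13.5 against E11.5 and 23 with either total scaling. At E17.5 against E15.5, 0 peaks were called, 1 with relative log expression scaling or without E11.5, 4 with the total over all peaks, 2 in DESeq2 and 0 to 1 with 1 library out.

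Signs turned for Celf2 at E17.5 against E11.5 (1.00, 0.78 and 0.13 with the totals of gene rows, all peaks and gene rows outside introns), for Elavl4 there (0.61 and 0.38) and for its peak at 110287062 (0.28 and 0.048). They also turned for small changes that did not pass: Celf2 at E15.5 against E13.5 (0.10 and 0.066 with the 2 total scalings, -0.23 to 0.055 with 1 library out), Bcl11a (-0.00041 to 0.32) and Neurod6 (-0.021 to 0.56) in that step, and Neurod6 at E17.5 against E15.5 (-0.53 to 0.053). The Elavl4 to Elavl3 change lay between -2.96 and -2.51 with 1 library out and was -2.74 with the higher scores. Rbfox3 and Neurod6 kept their calls against E11.5 in every alternative run.

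The replicate number was not treated as a pairing. The 18 same-numbered pairs of libraries had correlations of their deviations from -0.19 to 0.56, 13 of them above 0.1. Their mean was 0.14, against -0.07 for pairs with different numbers, and 4 of 12 libraries correlated best with their own number. Whether libraries of the same number share a batch was not tested. With the replicate number as a block, 75 peaks were called at E15.5 against E13.5 (45 without it) and 1 member peak at E17.5 against E15.5 (0 without it), and no call of the 6 summed genes changed.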

Other observations

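The antisense gene 4930538E20Rik rose beside Bcl11a. Its row at 24172778 to 24173209 of chromosome 11 had 11, 16 and 10 counts at E11.5 and 151, 399 and 118 at E17.5, a log2 change of 3.16 ± 0.57 (SE; adjusted p = 8.41e-05, edgeR). Its row at 24163212 had a log2 change of 3.31 ± 0.62 (adjusted p = 0.000135, edgeR). Bcl11a changed by 2.24 and 1.90 at these 2 peaks, and the difference between the strands was not tested. The antisense counts at the first of these rows came to 10.8% of the Bcl11a counts over all libraries, and at the second to 27.6%.

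One of the Stau2 peaks, starting at 16229183, rose at E17.5 against E11.5 (1.99 ± 0.38, SE; adjusted p = 0.000155, edgeR), while its other 5 peaks did not pass, with log2 changes from -0.33 to 0.61. It was chosen after its values were seen.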
